A study of Homo sapiens with 4 samples.

Results

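RAD21 is a subunit of cohesin, and the chromosomal sites it occupies were examined here where they fall inside protein-coding sequence. A peak of the untreated wild-type library was kept when its summit lay in a coding exon of a protein-coding transcript (GENCODE version 44, chromosomes 1 to 22) and more than 1 kb from every transcript 5′ end and from every protein-coding gene 3′ end. These criteria retained 750 peaks out of the 55201 on these chromosomes and of the 56853 in the whole list, which is 1.36% of the autosomal peaks. They lay in 710 genes. The study addressed how cohesin affects the movement of intact and damaged chromatin, and RAD21 ChIP-seq showed where cohesin was bound. HCT116, an established human colon carcinoma line, was profiled as untreated wild-type cells, and its derivative HCT116_RAD21_AID, which carries an mAID degron in RAD21 and expresses the OsTIR1 ubiquitin ligase, was profiled untreated and after 6 h with the auxins indole-3-acetic acid (500 µM) and alpha-naphthaleneacetic acid (500 µM). An Input library came from the auxin-treated degron cells, and all 3 ChIP libraries used the same RAD21 antibody. Of the peak lists, that of the untreated wild type alone was analysed here, so each group is 1 library, no difference between conditions was tested, and intervals below cover counting error only.

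Cohesin is a ring-shaped complex that extrudes chromatin loops and holds sister chromatids together. Extrusion is halted at CTCF, a zinc-finger protein that binds a long, directional DNA motif, so many cohesin peaks in interphase cells coincide with sites of CTCF binding. In a coding exon the same bases must also encode protein and carry the signals for splicing.

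Examples of sequences with a CTCF site are given first. They do not represent all coding exon peaks, of which 54.3% had such a site and 9.20% the exact CTCF consensus. Each sequence is given with 20 bases on either side of the site, which is in capitals. All are GRCh38 reference sequence read 5′ to 3′ along the strand of the motif. A site is the best match within 50 bp of the summit to a 19-base weight matrix, learned from 14966 strong peaks outside coding exons, with a score of at least 8.44 (log2 odds), the value exceeded by 1% of peak-free windows 5 kb away. The first set comprises 3 of the 10 most enriched peaks, at chr1:11838818-11838876 (+ strand), chr12:131104819-131104877 (+) and chr1:156225575-156225633 (−), to show a strong site within an exon. The motif runs along the coding strand in CLCN6, a chloride/proton exchanger of late endosomes, and in ADGRD1, an adhesion G protein-coupled receptor, and against it in PMF1, a kinetochore protein.
CLCN6: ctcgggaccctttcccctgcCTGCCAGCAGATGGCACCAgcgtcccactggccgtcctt
ADGRD1: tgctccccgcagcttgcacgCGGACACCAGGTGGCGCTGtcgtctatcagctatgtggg
PMF1: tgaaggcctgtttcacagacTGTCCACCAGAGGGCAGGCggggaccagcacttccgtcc

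The second set shows sites that lie across a splice acceptor, with the motif along the coding strand. In each, the intron ends with the 10th capital and the exon begins with the 11th, so that the AG of the motif is also the AG that ends the intron. The windows are chr2:205776216-205776274 (+) for NRP2, a semaphorin and VEGF co-receptor, chr20:5100903-5100961 (−) for TMEM230, a vesicle membrane protein, and chr6:96542864-96542922 (+) for UFL1, a ligase of the ubiquitin-like protein UFM1.
NRP2: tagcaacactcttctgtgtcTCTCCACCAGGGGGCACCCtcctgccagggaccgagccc
TMEM230: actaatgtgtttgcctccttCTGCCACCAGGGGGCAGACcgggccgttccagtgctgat
UFL1: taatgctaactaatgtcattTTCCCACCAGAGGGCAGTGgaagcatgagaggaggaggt

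The third set shows sites across a splice donor, with the motif against the coding strand, so that the first 4 capitals are the first 4 intron bases read in reverse complement. The windows are chr6:157184401-157184459 (−) for ARID1B, a subunit of the BAF chromatin remodeller, chr9:34500805-34500863 (−) for DNAI1, an axonemal dynein chain, and chr10:72834394-72834452 (−) for MCU, the pore of the mitochondrial calcium uniporter.
ARID1B: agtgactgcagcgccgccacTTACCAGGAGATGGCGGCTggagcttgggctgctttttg
DNAI1: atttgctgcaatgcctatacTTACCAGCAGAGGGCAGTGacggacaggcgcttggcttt
MCU: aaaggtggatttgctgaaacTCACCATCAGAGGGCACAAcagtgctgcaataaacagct

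Before the distance limits were applied, 2339 autosomal summits lay in coding sequence. Of these, 1474 (63.0%) were within 1 kb of a transcript 5′ end, and a further 115 were within 1 kb of a gene 3′ end. The summit just inside the 5′ limit lay 1004 bp from a transcript start in CDH1, which encodes E-cadherin, and was enriched 9.33-fold. The one just outside lay at 1000 bp in CEP68, a centrosomal protein gene, and was enriched 3.04-fold. At the 3′ limit, the sperm membrane protein gene TMEM95 had a summit 1003 bp from a gene end and 22.6-fold enriched, and FAM170B had one at 996 bp and 2.82-fold enriched.

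Coding exon peaks were on the whole weaker than peaks in introns. Fold enrichment is the deposited ratio of ChIP fragments to local background at the summit, with 1 added to both. Its median was 5.49 among the 750 coding exon peaks (quartiles 3.48 to 9.68) and 6.09 among 15609 peaks in introns of protein-coding genes (3.80 to 10.9). A fold enrichment of at least 10 was reached by 181 coding exon peaks (24.1%, 95% Wilson interval 21.2 to 27.3%) and by 27.9% of intron peaks, while 27.4% of all autosomal peaks reached it. At the low end, 35.6% of the coding exon peaks were below 4-fold, against 27.6% in introns. Promoter peaks were lower still, with a median of 4.19, and peaks at gene 3′ ends higher, with 6.68. The numbers of ChIP fragments at the summit, recovered from the deposited fold and p-value, ran from 15 to 451 with a median of 45. The local background was at its genome-wide floor of 5.90 fragments for 290 of the 750 peaks (38.7%, against 31.7% of intron peaks). For 40 it was 2 or more times that value (5.33%, against 6.05% of intron peaks).

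**Figure D1:**
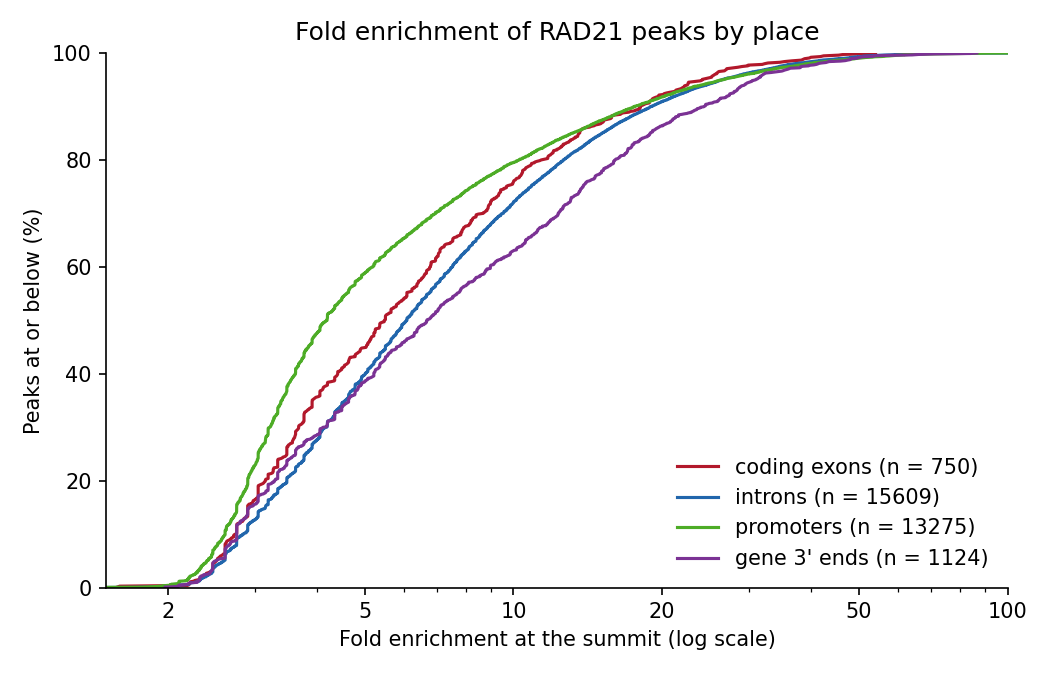
Cumulative share of RAD21 peaks (y axis, %) by fold enrichment at the summit (x axis, log scale) for coding exons, introns, promoters and gene 3′ ends, each line being all autosomal peaks of that class. The coding exon line lies left of the intron line over most of the range, with medians of 5.49 and 6.09, and right of the promoter line up to about 10-fold, the promoter median being 4.19.

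The most enriched member lay in the last of 22 coding exons of CLCN6, with 372 ChIP fragments (exact Poisson interval 335 to 412) over a background of 5.90, a fold enrichment of 54.1. That exon is coding only in transcripts other than the canonical one, as are those of PMF1 and NRP2. ZNF219, a zinc-finger transcription factor gene, followed with 451 fragments and 52.7-fold, and its summit lay 623 bp from the nearest edge of a 1426 bp exon. ADGRD1 reached 46.6-fold in an exon of 104 bp, and CELF2, which encodes an RNA-binding splicing regulator, 45.5-fold in one of 159 bp. These 4 summits each had a matrix site, with scores of 23.5, 15.3, 20.6 and 12.4.

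The other 6 of the 10 highest were between 38.5 and 42.4-fold. They lay in ATP8B3, a phospholipid flippase gene (42.4), TTLL8, a tubulin glycylase gene (41.8), CELSR1, a planar cell polarity cadherin gene (40.0), C4orf50 (39.7), CALCB, which encodes a calcitonin gene-related peptide (38.8), and PMF1 (38.5). Only CLCN6 and PMF1 of the 10 had the exact CTCF consensus. ATP8B3 and CELSR1 had no matrix match, their best scores being 3.92 and 6.68. At the other extreme, the lowest values were 1.58 and 1.60, both in the 8412 bp exon of HRNR, the gene of the epidermal protein hornerin, and 2.19 in SLC26A11, an anion transporter gene. Both HRNR windows have another exact copy in the genome, and their backgrounds were 6.58 and 5.46 times the floor.

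Strong peaks and CTCF sites went together. The exact 12-base CTCF consensus stood within 50 bp of the summit in 69 of the 750 peaks (9.20%, 7.33 to 11.5%), against 11.4% of all autosomal peaks and 13.6% of intron peaks (13.04 to 14.1%). A matrix match was present in 407 (54.3%, 50.7 to 57.8%), against 54.2% of all autosomal peaks, 62.05% of intron peaks and 37.4% of promoter peaks. The share with a match was 21.0% (56 of 267) below 4-fold, 66.2% (200 of 302) from 4 to 10-fold, 83.6% (102 of 122) from 10 to 20-fold and 83.1% (49 of 59) at 20-fold and above. In introns the corresponding shares were 27.5%, 68.6%, 83.6% and 90.2%. The intron peaks of 10-fold and above were among those from which the matrix was learned, and the coding exon peaks were not. The comparison is therefore uneven and may favour introns. The intervals for coding exons and introns overlapped in all 4 bands, though only narrowly below 4-fold (16.5 to 26.3% and 26.2 to 28.8%) and at 20-fold and above (71.5 to 90.5% and 88.6 to 91.7%).

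Members with a match had a median fold enrichment of 7.77 (5.10 to 13.3), a median width of 470 bp and 64 fragments at the summit. The 343 without one had 3.48 (2.76 to 5.51), 350 bp and 27 fragments. Among these 343, 30 were at or above 10-fold, the highest being ATP8B3 (42.4), CELSR1 (40.0) and ZNF704, a zinc-finger gene (32.2). GC content in the 101 bp around the summit was 59.4% with a match and 61.4% without.

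**Figure D2:**
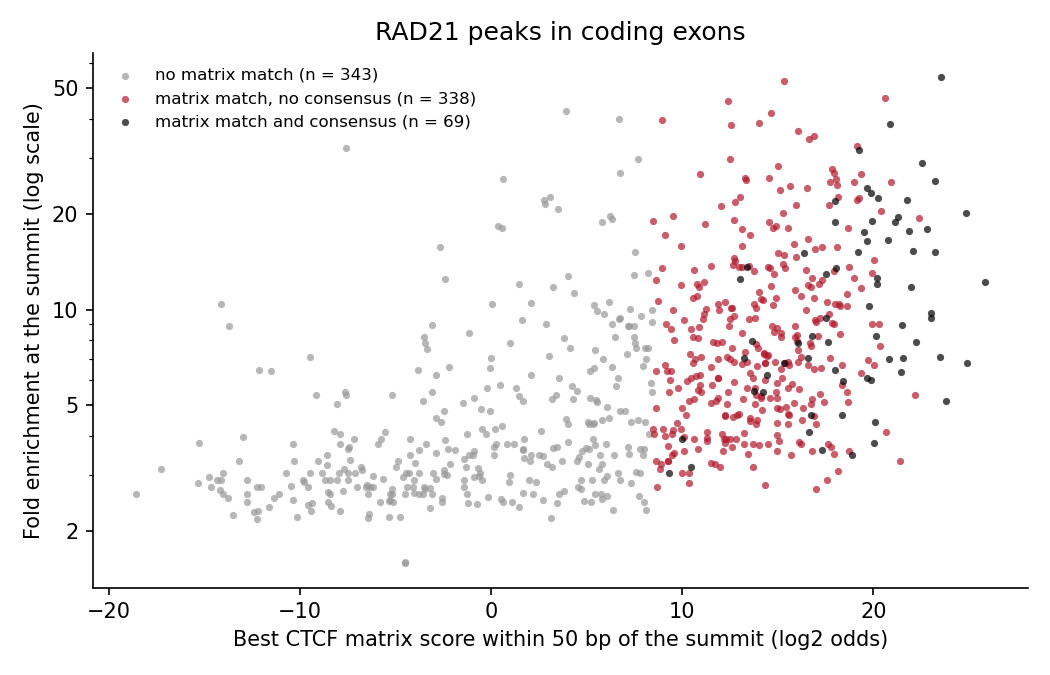
Each point is 1 of the 750 coding exon peaks, placed by the best CTCF matrix score within 50 bp of the summit (x axis, log2 odds) and the fold enrichment (y axis, log scale). Peaks with a match (407) mostly lie above those without (343), whose median is 3.48, and a few of the latter exceed 30-fold.

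Per base, summits were denser in coding exons than in introns. Eligible coding sequence amounted to 20.02 Mb, or 0.726% of the classified autosomal bases, and held 37.5 summits per Mb (exact Poisson interval 34.8 to 40.2). Introns held 15.1 (14.8 to 15.3), intergenic sequence 16.2, gene 3′ ends 37.4 and promoters 65.5. The ratio of coding exons to introns was 2.49 (2.31 to 2.68). Matrix sites were also denser in coding sequence, with 229 per Mb against 92.4 in introns, a ratio of 2.48 (2.41 to 2.56). Only 12.5% of these sites in coding exons and 12.9% in introns lay in a RAD21 peak, and 343 of the 750 members had no matrix match. A relation between site density and summit density was not tested. Exact consensus sites showed a ratio of 1.93 (1.63 to 2.29), from 6.84 and 3.54 per Mb.

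The density followed GC content in both classes. The 101 bp around the summit had a median GC content of 60.4% in coding exon peaks and 53.5% in intron peaks, with on average 4.48 and 2.07 CpG dinucleotides. In 1 kb bins of 35 to 40% GC, coding exons had 19.2 summits per Mb (15.2 to 24.0) and introns 8.06 (7.74 to 8.38). At 55 to 60% GC the values were 63.1 (52.9 to 74.8) and 59.6 (56.8 to 62.6), and at 60 to 65% they were 67.8 (55.1 to 82.5) and 78.5 (73.2 to 84.01). When both classes were weighted by the GC content of coding exons, introns came to 28.0 summits per Mb and the ratio fell to 1.34. Coding exons exceeded introns beyond the intervals in each class from 30 to 55% GC, and the intervals overlapped in each class from 55% upwards.

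**Figure D3:**
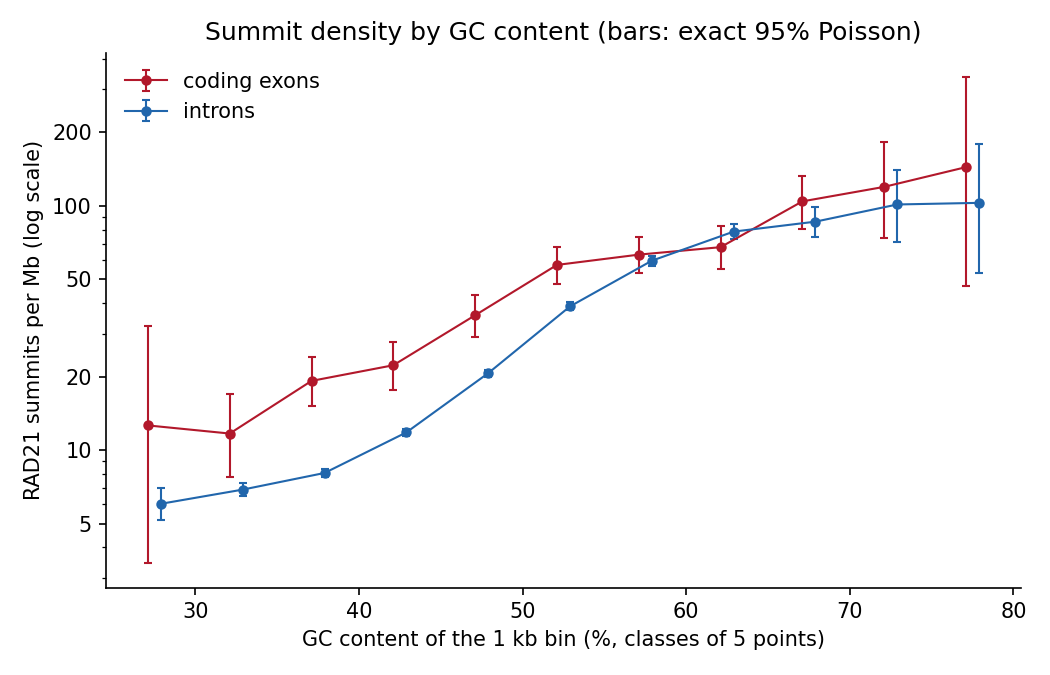
RAD21 summits per Mb (y axis, log scale) in coding exons and introns by the GC content of the surrounding 1 kb bin (x axis, %), with exact 95% Poisson intervals. Coding exons are above introns at 35 to 40% GC (19.2 and 8.06), and the intervals overlap at 55 to 60% (63.1 and 59.6).

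The exons that held summits were of ordinary length. The median length of the coding exon at the summit was 193 bp (137 to 547), and over all eligible coding bases it was 184 bp (126 to 579). Density was 33.1 per Mb (26.5 to 40.8) in exons under 100 bp, 36.5 from 100 bp to below 200 bp, 43.8 from there to below 500 bp, 48.6 (38.4 to 60.6) from there to below 1000 bp and 31.6 (26.1 to 37.8) above. In this last class the median fold enrichment was also the lowest, 3.91, and 43.6% had a matrix match. Peaks were wider than the exon in 542 cases (72.3%), and 128 (17.1%) lay entirely within coding sequence. A median of 52.8% of the peak width was coding. The summit was less than 50 bp from the edge of the exon in 358 cases (47.7%). By position, 540 were in internal coding exons, 130 in the last, 31 in the first and 49 in the only one.

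Not every CTCF site in an exon lay in a RAD21 peak, and binding of CTCF itself was not measured. Of 137 exact consensus sites in eligible coding sequence, 69 (50.4%, 42.1 to 58.6%) lay within a RAD21 peak of any class. The share was 61.8% in introns (60.2 to 63.4%) and 72.3% at promoters. These 69 sites are not the same set as the 69 peaks with a consensus given above, 57 of which had it within the coding exon. The matrix score of the sites in a peak had a median of 19.2 and that of the others 14.7. Over all matrix sites, the share in a peak rose with the score, from 5.59% at 8.44 to 10 to 15.0% at 12 to 14 and 75.2% (66.7 to 82.2%, 88 of 117 sites) at 18 and above. Introns gave 3.98%, 15.5% and 82.3% (81.0 to 83.5%) in the same classes. The classes differed beyond their intervals at scores of 16 to 18, where 42.1% (35.5 to 49.1%) of coding sites and 52.6% (51.0 to 54.2%) of intron sites were in a peak. The lowest class was higher in coding exons, with 4.64 to 6.73% against 3.80 to 4.17%. Strong intron peaks, unlike coding exon peaks, had been used to learn the matrix, so this comparison is also uneven.

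**Figure D4:**
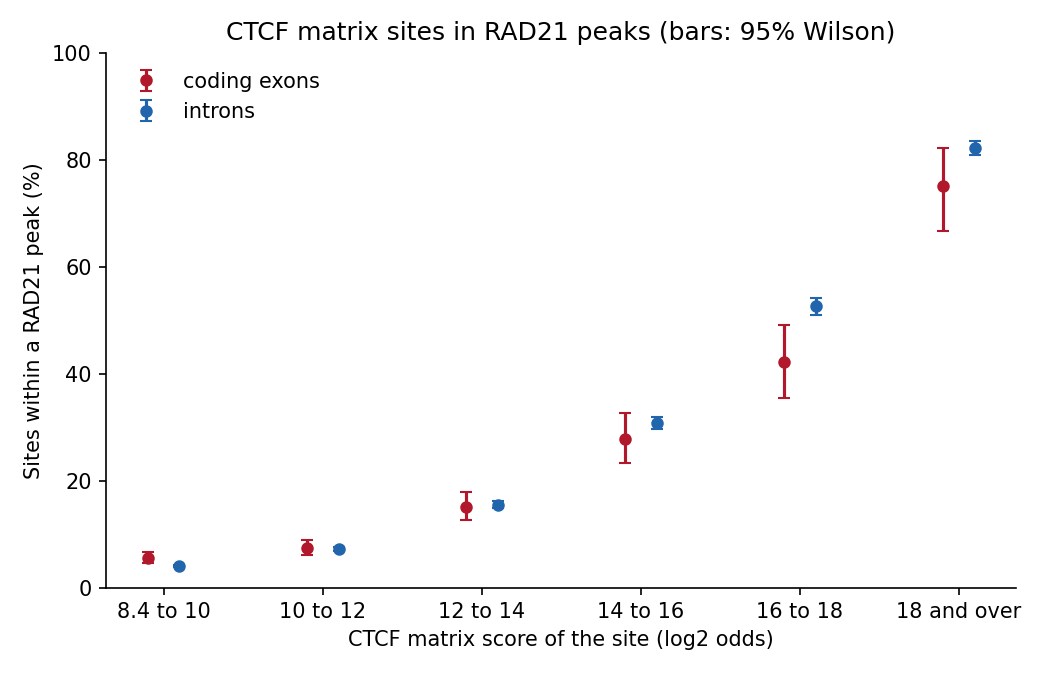
Share of CTCF matrix sites that lie in a RAD21 peak (y axis, %) by matrix score (x axis, log2 odds) for coding exons and introns, with 95% Wilson intervals. Both rise with the score, to 75.2% and 82.3% at 18 and above, and the coding exon value is lower at 16 to 18 (42.1% against 52.6%).

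The motif pointed along and against the coding strand about equally often. Among members with the exact consensus, 34 of 69 (49.3%, 37.8 to 60.8%) had it on the coding strand, and among those with a matrix match 197 of 407 (48.4%, 43.6 to 53.3%). Fold enrichment was also alike, with medians of 7.83 (5.04 to 13.5) in sense and 7.73 (5.25 to 13.02) in antisense. The summit was displaced toward the 3′ side of the motif. It lay a median of 8 bp beyond the centre of the site (−3 to 19) and on that side in 278 of 407 peaks (68.3%), and in introns the median was 11 bp (−2 to 20).

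Sites wholly within coding sequence took up unequal positions relative to the codons. Of 1952 matrix sites in sense, 34.7% began at the first base of a codon, 11.0% (9.70 to 12.5%) at the second and 54.3% (52.1 to 56.5%) at the third. Of 2264 in antisense, whose first base is counted in the direction of the gene, 41.6%, 30.3% and 28.1% began at these positions. The share in a RAD21 peak was close in all 3 frames in sense, at 12.3%, 12.6% and 12.8%. In antisense it was 14.4%, 9.48% (7.50 to 11.9%) and 14.8%.

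Where a site crossed the edge of a coding exon, it mostly did so in 1 register for each strand. This was noticed after the values had been seen. Among members whose site crossed the exon start in sense, 26 of 27 had exactly 10 bases in the intron, as in NRP2, and in all 26 the intron ended in AG. Of these, 6 had the exact consensus, in NRP2, TMEM230, DHRS12, UFL1, COG3 and CDC7. Their fold enrichment ran from 3.19 in POU2AF1, a B cell co-activator gene, to 29.0 in NRP2, with a median of 7.07. Among members whose site crossed the exon end in antisense, 10 of 13 had exactly 4 bases in the intron, which began with GT in all 10. These ran from 3.91-fold in SYNE3, a nuclear envelope protein gene, through 14.3 in MCU, 15.3 in DNAI1 and 15.8 in PEX5L to 36.6 in ARID1B. Sites in sense at exon ends and in antisense at exon starts crossed the edge in 2 and 3 members. There the 3′ side of the motif, where summits mostly lay, is in the intron. The criteria kept only summits in coding exons, so these low counts are not comparable with those above. Among all matrix sites of these kinds, 8 and 29 were in a RAD21 peak.

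For these orientations and edges, the same registers were the most frequent among all matrix sites at eligible coding exons, whether or not in a peak. In sense at exon starts, 238 of 307 sites had 10 bases in the intron, and 48 of the 238 (20.2%, 15.6 to 25.7%) were in a RAD21 peak. In antisense at exon ends, 61 of 130 had 4 bases in the intron and 44 had 7, and 12 of the 61 (19.7%, 11.6 to 31.3%) were in a peak. In antisense at exon starts, the most frequent register had 15 bases in the intron, with 128 sites, and 14 of the 128 (10.9%, 6.63 to 17.5%) were in a peak. Sites in sense at exon ends numbered 160, with 8 in a peak. Over all matrix sites whose central base lay in an eligible coding exon the share was 12.5% (11.6 to 13.5%). Sites with 10 or 15 bases in the intron have an intron base at their centre, so they generally fall outside that set.

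**Figure D5:**
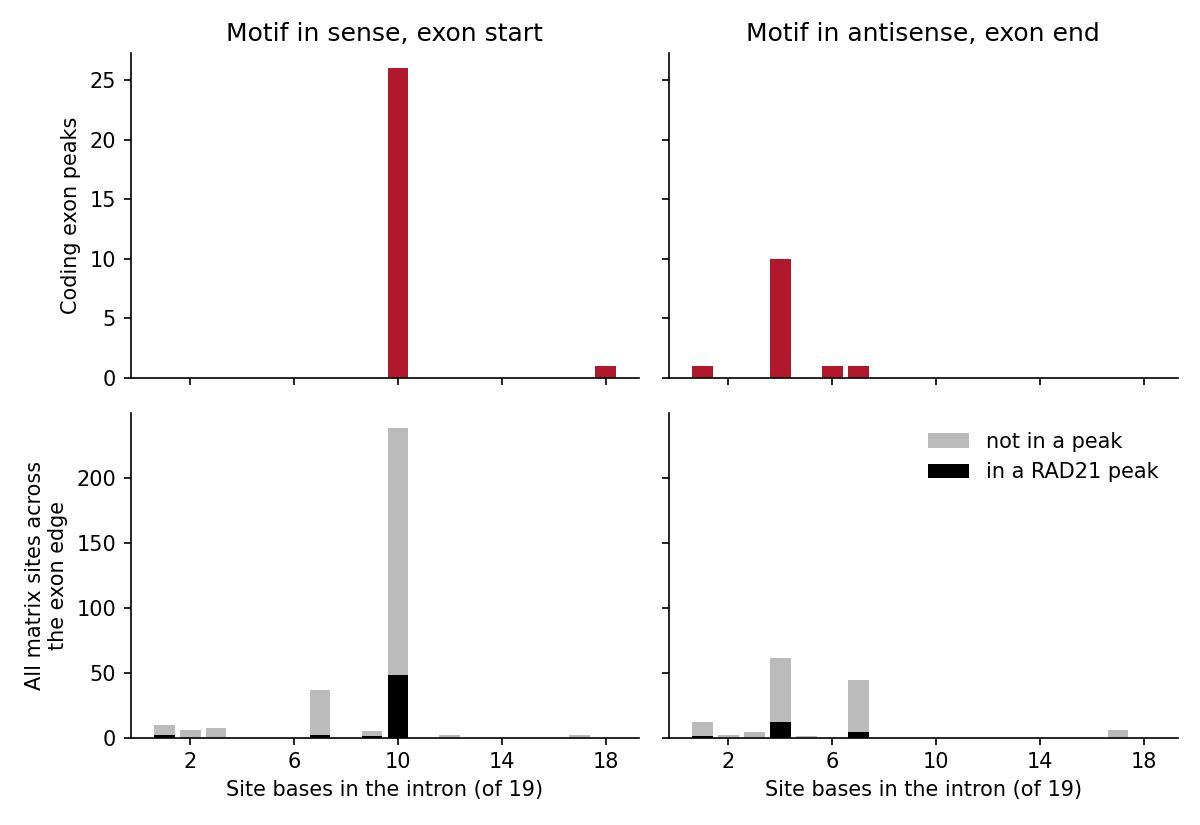
Number of coding exon peaks (upper row) and of all CTCF matrix sites (lower row, black for those in a RAD21 peak and grey for the rest) by how many of the 19 site bases lie in the intron (x axis), for sites in sense across the exon start and in antisense across the exon end. The highest columns are at 10 bases (26 peaks, 238 sites) and at 4 bases (10 peaks, 61 sites), with a further 44 sites at 7 bases in antisense.

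Related genes in several cases carried a peak at the same place of the same exon. The comparison was made after keratins had been seen to recur. In 8 groups, together 23 members, the exons had the same length and the site the same position, strand and nearly the same bases. CRMP1 and DPYSL2, both cytosolic phosphoproteins of axon guidance, had the site in an 89 bp exon, the last of 14, with 12.2 and 20.4-fold enrichment. SMAD1 and SMAD9, transducers of BMP signals, had it in their 141 bp last coding exons, with 8.31 and 4.93-fold. The RNA helicase genes DDX19A and DDX19B had 16.5 and 6.09-fold. The neuroblastoma breakpoint family contributed 7 members, in exons of 210 bp, between 3.58 and 8.76-fold. Of the 23 windows, 10 have another exact copy in the genome, so a read lying wholly within them cannot be assigned to 1 gene.

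Keratins, the intermediate filament proteins of epithelia and hair, held 8 members in 0.0318 Mb of eligible coding sequence, which is 252 per Mb (109 to 496) against 37.5 over all coding exons. All 8 were on chromosome 12, in 8 genes, and their median fold enrichment was 5.61. KRT82 was the highest (29.9-fold, 205 fragments), more than 2 times as enriched as the next, KRT83 (10.0). KRT85 (6.96), KRT80 (6.59), KRT8 (4.64), KRT81 (3.92), KRT75 (3.48) and KRT73 (2.62) followed, and 4 of the 8 had a matrix match. All but those of KRT83 and KRT73 lay in exons of 221 bp. The Poisson interval counts such related exons as independent, so it is too narrow for a statement about the family.

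Most genes had a single member. Of the 710 genes, 672 had 1, 34 had 2, and ZNF469, EPG5 and MACF1 had 3. EPG5, an autophagy tethering factor gene, had matrix sites in sense at all 3 of its summits, in coding exons 18, 23 and 32 of 44, with scores of 16.1, 19.7 and 23.2 and enrichments of 5.60, 24.1 and 25.5-fold. MACF1, which encodes a cytoskeletal crosslinker, had 18.1, 6.38 and 5.58-fold. In ZNF469, a zinc-finger gene with a single coding exon of 11859 bp, 1 summit reached 35.4-fold with a matrix score of 16.9, and the other 2, at 3.04 and 2.46-fold, had no match. MUC12, which encodes a membrane mucin, was the only gene with 4. All 4 were in its 14935 bp exon between 2.21 and 2.55-fold, none had a matrix match, each window has another exact copy, and the backgrounds were 2.10 to 4.66 times the floor.

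The chosen gene lists were described by their counts and densities, beside 37.5 summits per Mb over all eligible coding exons. Mucins held 10 members (69.9 per Mb, 33.5 to 129), with a median fold enrichment of only 2.66, 2 matrix matches and none at 10-fold. MUC5B was the highest with 4.20. Myosins held 10 (65.9 per Mb, 31.6 to 121), with a median of 9.24, 7 matches and MYO7A, the motor protein of inner ear hair cells, at 24.5-fold. Notch receptors held 4 in 0.0208 Mb (192 per Mb, 52.4 to 493). NOTCH3 was enriched 34.6-fold in a 566 bp exon and 2.75-fold in another, NOTCH2 5.36-fold and NOTCH4 2.57-fold. Solute carriers held 18 (45.6 per Mb, 27.0 to 72.1), 12 of them with a match, led by the noradrenaline transporter gene SLC6A2 at 27.8-fold and the sodium/calcium exchanger gene SLC8A3 at 21.9-fold.

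Zinc finger genes held 23 members in 20 genes (28.8 per Mb, 18.2 to 43.2), of which 8 had a match. Besides ZNF219, ZNF469 and ZNF704, only ZNF503 exceeded 10-fold, at 12.5. Ion channel genes held 8 (40.7 per Mb), among them the potassium channel gene KCNJ9 at 15.2-fold and the calcium channel gene CACNA1G at 14.4 and 7.77-fold. Genes with very long coding sequences held 8 (21.4 per Mb, 9.23 to 42.1). Laminins held 3 (57.9 per Mb, 11.9 to 169), the highest being LAMA2 at 12.3-fold, and olfactory receptors 3 (32.2 per Mb, 6.65 to 94.2). Genes with an ADAMTS symbol held 2 (29.1 per Mb), in ADAMTSL3 and ADAMTS13. Plexins and semaphorins (37.8 per Mb) and clustered protocadherins (25.98 per Mb) also held 2 each. Among all the gene lists, only keratins and Notch receptors, which were higher, and collagens, which were lower, had intervals that exclude the density over all coding exons. The 42 collagen genes held 0 in 0.139 Mb, where the density over all coding exons would give 5.22 and the upper Poisson bound is 26.5 per Mb. HOX and histone genes held 0, but little of their coding sequence was eligible (0.00617 and 0.000362 Mb).

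The lists of cohesin, colon cancer and chromatin genes held numbers close to those that the density over all coding exons would give. The 16 cohesin and CTCF genes with eligible sequence held 0 in 0.0373 Mb, against 1.40 at the overall density. The 23 colon cancer genes held 1, against 1.58, in PMS2, a mismatch repair gene, at 10.4-fold with a matrix match. The 14 chromatin regulators held 2, against 2.01, namely ARID1B at 36.6-fold and KMT2A, a histone H3 lysine methyltransferase gene, at 9.68-fold, both with a match.

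Some members lay in repeated sequence. The 101 bp around the summit had another exact copy for 38 of the 750 (5.07%), with up to 57 copies, and their median fold enrichment was 3.91 against 5.56 for the rest. In 40 members (5.33%) the background was 2 or more times the floor, and 8 of these had such a copy. That background was no more frequent than in introns (6.05%), at promoters (6.28%) or in intergenic sequence (10.7%). Exact copies were not counted for peaks of other classes. The part of repeated sequence in the low values was not tested.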

How the data were processed

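The RAD21 ChIP-seq peaks of untreated wild-type HCT116 cells (1 library) were used, and the other 3 libraries of the series were not analysed here. The submitters' processing notes name Trimmomatic (0.39), Bowtie2 (2.5.3), Picard, deepTools (3.5.4) and MACS2 (2.2.9.1). Per the study's methods, reads were aligned to GRCh38 and peaks called against Input at a q-value threshold of 0.05. The authors' deposited list gives, per peak, a summit offset, the fold enrichment there (a ratio to local background), p-value and q-value as −log10, and a score that was not used here. Which Input served as the control of this library is not given in the sources used here.

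Fragment numbers and backgrounds at summits were computed by inverting how MACS2 derives the fold and the Poisson p-value. A number was within 0.05 of whole for all but 14 of 56853 peaks. The step was tested on simulated data. All sequence names were in the reference, and 0 peaks extended past a sequence end.

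Each autosomal base was assigned, in this order, to promoter (within 1 kb of a transcript 5′ end), gene 3′ end, coding exon, other exon, intron or intergenic sequence. The CTCF consensus and a 19-base matrix were searched for on both strands, with the whole site within 50 bp of the summit. The matrix was trained on peaks of at least 10-fold outside coding exons. Shares carry 95% Wilson intervals, densities exact Poisson intervals, medians quartiles. With 1 library no test was made. The genes named are the 10 most and 3 least enriched, those with most members, those nearest the limits and those of the gene lists, with further ones chosen after their values were seen. The members, lists and gene families were chosen with earlier results of these data known. Scripts ran in Python 3.11.15 with numba 0.67.0, scipy 1.17.1, numpy 2.4.6, pandas 2.3.3 and matplotlib 3.10.9. Alternatives varied the q-value, background, distance limits, transcripts, motif and window. A set of sequences in 1 gene family is not reported here.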

Additional observations from a re-analysis of the deposited data

Results flagged for a closer look

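Chromosome X was outside the criteria and held 6 further RAD21 peaks with the summit in a coding exon, enriched between 3.33 and 8.55-fold. They came to 7.11 per Mb of eligible coding sequence (exact Poisson interval 2.61 to 15.5), against 37.5 on chromosomes 1 to 22. Peaks in introns were also sparser there, with 6.47 per Mb (5.75 to 7.25) against 15.1.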

How the results depend on the processing

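The number of coding exon peaks stayed within 1.5 times of 750 under 8 of 9 alternatives, and was 445 when the width of the peak, at least 50% of it, rather than the summit had to be coding. The median fold enrichment of 5.49 was 6.09 with q-values of at most 0.001, 6.81 at 1e-05 and 4.11 with the width criterion. The density ratio of 2.49 was 1.34 after weighting by GC class and between 2.34 and 2.51 under the other 5 alternatives. The share of peaks with a consensus rose from 9.20% to 38.7% with 1 mismatch and 54.3% with the matrix. The share of consensus sites in a peak, 50.4%, was 13.9% with 1 mismatch. The share on the coding strand and the exon length stayed within their intervals under all 5 and all 4 alternatives run. Leaving out summits with another exact copy was added after seeing the data and gave 712 peaks. No paired analysis was possible because each group is 1 library and no test was made. With 1 library, the spread between cultures is unknown, and a summit of 15 to 20 fragments was near the detection limit.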

Other observations

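Coding exon peaks were unevenly spread over the chromosomes. The highest densities were on chromosome 16, with 58.2 per Mb of eligible coding sequence (exact Poisson interval 42.1 to 78.3) and 43 members, and chromosome 17, with 55.4 (41.6 to 72.2) and 54 members. The lowest was on chromosome 4, with 20.5 (12.4 to 32.1) and 19 members. The median fold enrichment did not follow this order, being 4.06 on chromosome 16 and 5.86 on chromosome 4. These chromosomes were picked as extremes. Their GC content and the density of other peaks on them were not compared, so the spread may not be particular to coding exon peaks.

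Along the gene, the span from start to end was cut into 4 equal parts, and the first had 29.9 summits per Mb of eligible coding sequence (22.9 to 38.2), and the following parts 37.3, 38.1 and 39.1, with intervals that overlapped. The distance to the next RAD21 peak had a median of 8722 bp from coding exon peaks and 13008 bp from intron peaks. Another peak lay within 1 kb of 16 coding exon peaks (2.13%), against 2.26% of intron peaks and 9.59% of promoter peaks.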
